A study of Bos taurus with 20 samples.

Results

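Mammary glands that had been challenged with E. coli and infused with cefapirin plus prednisolone (CFPD) were compared with challenged glands left untreated (CNT) of the same cows 48 h post challenge. The comparison rests on 6 of the 20 arrays of the series, chosen by their labels: the CFPD and the CNT gland of each of the 3 cows sampled at 48 h, paired by the cow number in the title. Each array of the series measured the RNA of 1 gland of a mid lactating Holstein Friesian cow on the Affymetrix GeneChip Bovine Genome Array. All CNT, CF and CFPD glands received 100 cfu of E. coli through the teat. CFPD glands were then given cefapirin (300 mg) together with prednisolone (20 mg) by intramammary infusion at 4, 12, 24 and 36 h, CF glands the same dose of cefapirin alone at the same times, and CNT glands nothing. Each cow also had 1 gland that was neither challenged nor treated (NC). The 6 NC and CF arrays of 48 h entered the same model and are given beside the CFPD and CNT values. The groups are limited as models in the following ways. The glands of a cow share 1 animal and its circulation, so a drug or mediator from 1 gland can reach the others. The CNT gland was the left front gland in all 3 cows and the NC gland the right front one. The CFPD gland was a rear one (left in cow8452, right in cow8507 and cow8605), and the CF gland was the opposite rear one. Treatment and position of the gland thus cannot be told apart.

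In mastitis caused by E. coli, lipopolysaccharide from the bacterial wall is sensed through Toll-like receptor 4 on epithelial cells and macrophages, which release chemokines and interleukins. Neutrophils then enter the gland from the blood, acute phase proteins are made in the udder itself as well as in the liver, and milk synthesis declines. Cefapirin is a cephalosporin that kills bacteria by blocking the synthesis of their wall, and prednisolone is a glucocorticoid, a class of steroids that represses many inflammatory genes through the glucocorticoid receptor.

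Levels are log2 signals normalised by the authors, and values of 3 glands are given in the order of cow8452, cow8507 and cow8605. The casein genes CSN1S1, CSN1S2, CSN2 and CSN3 lay between 14.12 and 15.58 on all 12 arrays of 48 h, near the top of the range, so that the tissue was secretory mammary gland by this check. The CNT array of cow8452 stood farthest from the others, at a mean correlation distance of 0.116 against 0.047 to 0.0691 for the remaining 11 arrays. The labels CF and CFPD of cow8452 are in doubt, since the labels and the study's tables appear to differ on them. Groups are those of the labels, and the exchange is given beside the genes of the naming rule whose call it changed. In bulk tissue, fewer cells of a type and less RNA per cell cannot be told apart, and this holds for each result below.

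Probe sets were tested where the signal exceeded the array's median on at least 3 of the 12 arrays. Of 13000 probe sets tested, 399 (3.07%) differed between CFPD and CNT glands and are termed "called" here: the adjusted p was under 0.05 and the fold change 1 or more on the log2 scale in either direction (limma with the cow as a block). CFPD was lower at 308 of them, 2.37% of those tested, and higher at 91, 0.7%. Counts of called members in the lists below are to be read beside these shares. An unadjusted p under 0.05 (limma) was common, at 3743 of the 13000 probe sets tested. Counts at that threshold in the lists below are to be read beside this share. The called probe sets carried 247 different gene symbols, and 134 of them had no symbol. All 399 had the same sign in the 3 cows, and at 367 the CFPD and CNT values did not overlap. Values of the groups that did not overlap were common, at 24.4% of all probe sets tested (17.5% with CFPD lower, 6.91% with CFPD higher). Among the called, 62 probe sets were lower and 14 higher by at least 2 on the log2 scale. The extremes over all tested were -4.22 and 4.46. Of the 308 lower probe sets, 72 passed the filter on dim signals only because CNT arrays were counted, so that a difference was built into their selection. In most lists of immune genes below 1 to 3 of the tested members passed in this way. The median log2 fold change was -0.13 over all probe sets tested and 0.03 once the 12 arrays were quantile normalised again, which moved the lower share of the calls from 77.2% to 62.3% (203 lower and 123 higher).

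These counts depended on how cows entered the model. Without the cow as a block 157 probe sets were called (136 lower, 21 higher), all of them among the 399. Leaving out cow8605 left 37, leaving out its CFPD array alone 189, and leaving out the CFPD array of cow8452 left 196. With the labels of cow8452 exchanged 390 were called (309 lower, 81 higher), 351 of them shared with the 399 in the same direction. No called gene named below changed its direction under any setting tried.

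The acute phase proteins, plasma proteins of early inflammation that the udder also makes, included the largest fall. Haptoglobin (HP), which binds free haemoglobin, measured 13.82, 14.02 and 14.13 in CNT glands and 11.46, 10.95 and 6.90 in CFPD glands (log2 fold change -4.22, standard error 0.94, adjusted p = 0.0278, limma). The CNT glands were nearly alike and the CFPD glands spread widely, with cow8605 below its NC gland (7.50). LBP, which hands lipopolysaccharide to its receptor, measured 13.73, 14.23 and 14.26 in CNT and 12.86, 11.62 and 9.997 in CFPD glands (log2 fold change -2.58, standard error 0.56, adjusted p = 0.0249). Ceruloplasmin (CP), a copper-carrying ferroxidase, fell with -2.37 (adjusted p = 0.028) as well, and its CFPD value in cow8507 (8.64) lay close to the CNT value of that cow (8.98). Another probe set of CP was called (-2.33, adjusted p = 0.0354), and a further one was not (-2.60, adjusted p = 0.0773). Of 18 genes listed, 14 were on the array and 11 were tested, of which 3 fell. The median over all 14 was -0.32, against -0.01 over all 24016 probe sets. Some probe sets were named, here and below, from the study's tables of genes that differed on these same arrays. Their differences are thus not independent evidence, and they were added after their values were seen. SAA3, also chosen afterwards, had -2.18 (adjusted p = 0.169) and was not called. A probe set that the study's tables describe as serum amyloid A-like fell with -3.06 (adjusted p = 0.00286), and SERPINA3, a protease inhibitor named from those tables too, with -2.08 (adjusted p = 0.00289). Without the cow term 1 of the 3 calls among the tested list members was left, and HP had an adjusted p of 0.0987. HP also lost its call without cow8507 (log2 fold change -4.80) and without cow8605 (-2.72).

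**Figure D1:**
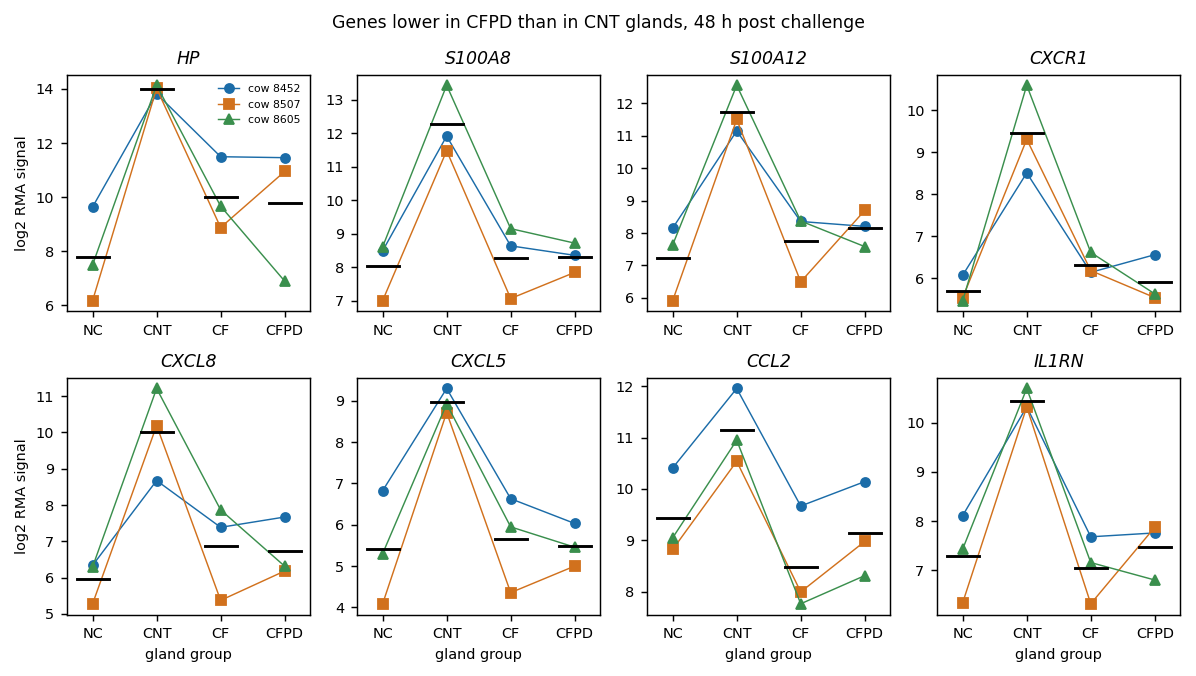
Log2 RMA signal of 8 genes in the 12 glands of 48 h, by group on the horizontal axis (NC, CNT, CF, CFPD). Lines join the glands of 1 cow and black bars are group means of 3 glands. The 3 CNT glands lie above the 3 CFPD glands for each of the 8 genes, and HP spreads from 6.90 to 11.46 among CFPD glands.

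Chemokines are secreted proteins that draw leukocytes along a gradient, and those of the CXC type with affinity for CXCR1 and CXCR2 act on neutrophils. CXCL8 (interleukin 8) measured 8.67, 10.19 and 11.21 in CNT and 7.67, 6.18 and 6.32 in CFPD glands (log2 fold change -3.30, standard error 0.64, adjusted p = 0.0162, limma). The smallest difference was that of cow8452, and the groups did not overlap. CXCL5 measured 9.30, 8.72 and 8.93 against 6.03, 5.00 and 5.46 (log2 fold change -3.49, standard error 0.35, adjusted p = 0.000961), a gap of similar size in each cow. CXCL2 fell with -3.17 (adjusted p = 0.0317), and the difference within cows was -0.73, -3.18 and -5.59, the smallest again in cow8452. CXCL10, an interferon-induced ligand that acts on T cells through CXCR3, measured 10.04, 8.59 and 8.44 in CNT and 6.41, 5.13 and 5.84 in CFPD glands (log2 fold change -3.23, standard error 0.36, adjusted p = 0.00112). Its CFPD glands were also below the NC glands of the same cows, which measured 8.05, 6.26 and 8.26. These were the 4 called of 10 tested CXC ligands, with 12 on the array and a median of -0.67 over those 12. Of the 10, 3 passed the filter only through CNT arrays, CXCL5 and CXCL10 among them, so that a difference was built into their selection. The 2 probe sets of GRO1, a neutrophil attractant, were not called, at -0.59 (adjusted p = 0.144) and -2.16 (adjusted p = 0.0675). CXCL8 and CXCL2 lost the call without the cow term, with adjusted p of 0.0524 and 0.0778.

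Among the CC chemokines, which act mainly on monocytes and lymphocytes, 4 of 11 tested fell (14 on the array, median -0.44). CCL2, the main attractant of monocytes, measured 11.95, 10.54 and 10.95 in CNT and 10.14, 8.98 and 8.31 in CFPD glands (log2 fold change -2.001, standard error 0.21, adjusted p = 0.000961, limma). The difference within cows was -1.81, -1.56 and -2.63, and the groups did not overlap although cow8452 was the highest in every group. CCL8, a related monocyte attractant, fell with -2.23 (adjusted p = 0.00208) and CCL4 with -1.57 (adjusted p = 0.00157). The fourth was CCL21, a ligand of lymphatic vessels (-1.10, adjusted p = 0.0319), whose groups overlapped. The probe sets of CCL3 disagreed: that with the highest mean had 0.16 (adjusted p = 0.515), and another had -2.27 (adjusted p = 0.0139). CCL5 was not called (-0.63, adjusted p = 0.0856). CCL2 and CCL21 lost their calls without the cow term (adjusted p = 0.137 and 0.228).

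Of the chemokine receptors, CXCR1, the neutrophil receptor for CXCL8, measured 8.51, 9.31 and 10.59 in CNT and 6.56, 5.54 and 5.63 in CFPD glands (log2 fold change -3.56, standard error 0.45, adjusted p = 0.0026, limma). The NC glands measured 6.08, 5.54 and 5.47, and this probe set passed the filter only through the CNT arrays. CXCR4, the receptor for CXCL12, fell with -1.63 (adjusted p = 0.00167), and these were 2 of 7 tested receptors (9 on the array, median 0.01). CCR1, a receptor for CC chemokines named from the study's tables, fell with -2.25 (adjusted p = 0.00195). CXCR3, the receptor for CXCL10, was not called (0.10, adjusted p = 0.641). Of the 15 genes that the study placed in its chemokine, cytokine and Toll-like receptor pathways, 14 were tested and 11 fell, CCL3, CCL5 and CD40 being the others, with 3 of the 14 tested only through CNT arrays, and 5 of the 11 were called without the cow term. CD40, the receptor through which T cells activate antigen presenting cells, stood at -0.45 (adjusted p = 0.384) at the probe set tested. A dimmer one that failed the filter measured 7.66, 7.04 and 7.49 in CNT and 6.29, 6.17 and 6.19 in CFPD glands, without overlap. The study chose this list on these samples, so its direction is not independent evidence.

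Markers of neutrophils fell together with these ligands and receptors. S100A8, a calcium-binding protein that fills the neutrophil cytoplasm, measured 11.92, 11.48 and 13.44 in CNT and 8.36, 7.85 and 8.73 in CFPD glands (log2 fold change -3.97, standard error 0.29, adjusted p = 0.000341, limma). The NC glands measured 8.50, 7.01 and 8.62, near the CFPD gland in each cow and far below the CNT gland. S100A12, of the same family, measured 11.15, 11.50 and 12.56 against 8.21, 8.70 and 7.58 (log2 fold change -3.58, standard error 0.58, adjusted p = 0.00767). S100A9, the partner of S100A8, fell at both probe sets, with -3.97 (adjusted p = 0.0105) and -2.13 (adjusted p = 0.00139), and with cow8507 the highest CFPD gland at each. Of 20 neutrophil markers listed, 13 were on the array and 7 were tested, 3 of these only through CNT arrays. The 6 that fell included NCF1, a subunit of the phagocyte oxidase (-2.69, adjusted p = 0.00104), and TREM1, an amplifying receptor chosen after its value was seen (-2.28, adjusted p = 0.000782), and all 6 were called without the cow term too. G0S2 was the exception at 1.10 (adjusted p = 0.145). The median over all 13 on the array was -0.96. Summed over the 7 tested on the linear scale, the signal was 8832 to 23147 in CNT, 1796 to 4382 in CFPD and 1359 to 4166 in NC glands. Its part in the falls of other genes was not tested.

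Other leukocyte genes were lower as well. Of 17 pan-leukocyte genes listed, 14 were on the array, 13 were tested and 9 fell, with a median of -1.31 over the 14. PTPRC (CD45), present on all nucleated blood cells, measured 10.71, 9.44 and 9.61 in CNT and 8.98, 8.64 and 8.76 in CFPD glands (log2 fold change -1.13, standard error 0.18, adjusted p = 0.00723, limma). It stayed well detected in NC glands, at 9.84, 8.98 and 9.08. CD53, a tetraspanin of leukocytes, fell with -2.01 (adjusted p = 0.00107), CD48, a ligand of lymphocyte receptors, with -1.76 (adjusted p = 0.000964) and LAPTM5, a lysosomal protein of blood cells, with -1.49 (adjusted p = 0.00666). From the study's tables, SPI1 (PU.1), a transcription factor of the myeloid line, fell with -1.76 (adjusted p = 0.00296). The summed signal of the 13 was 15358 to 19162 in CNT and 5420 to 7841 in CFPD glands, and its part in the other falls was not tested. PLEK, a kinase C substrate of platelets and leukocytes, was among the 10 largest falls, at 9.78, 9.57 and 9.48 in CNT and 6.34, 6.40 and 5.26 in CFPD glands (log2 fold change -3.61, standard error 0.34, adjusted p = 0.000741).

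Monocyte and macrophage markers were divided. CD68, a lysosomal protein of macrophages, fell with -2.27 (adjusted p = 0.0258), TYROBP, an adaptor of activating receptors, with -1.71 (adjusted p = 0.0126), its relative FCER1G with -1.53 (adjusted p = 0.00453) and VSIG4, a complement receptor of tissue macrophages, with -1.58 (adjusted p = 0.0287). CSF1R, the receptor that keeps macrophages alive, fell with -1.09 (adjusted p = 0.0123). CD14, the co-receptor for lipopolysaccharide, measured 11.77, 13.03 and 12.52 in CNT and 11.86, 12.45 and 12.49 in CFPD glands and was not called (-0.18, adjusted p = 0.583, limma). MSR1, chosen after its value was seen, went the other way at 0.95 (adjusted p = 0.127), with a sign that differed between cows. In all 8 of 13 tested fell (15 on the array, median -1.06), 3 of them also without the cow term. The summed signal of the 13 was 22537 to 26754 in CNT and 13024 to 14240 in CFPD glands, and was not tested for its part in other results. CD69, an early activation marker, was the 1 called of 14 tested T and NK cell genes (-2.14, adjusted p = 0.00047), of which 9 had an unadjusted p under 0.05 (17 on the array, median -0.52). Over all probe sets tested, 2.37% were called lower. NKG7 and PRF1 of cytotoxic cells, chosen after their values were seen, stood below the fold threshold at -0.98 (adjusted p = 0.00972) and -0.68 (adjusted p = 0.0129), CD4 at 0.74 (adjusted p = 0.0191), and the chains CD3E and CD3D of the T cell receptor complex stood at -0.07 (adjusted p = 0.756) and -0.52 (adjusted p = 0.11). None of 3 tested B cell and plasma cell genes was called (1 at an unadjusted p under 0.05 by limma), and JCHAIN, which joins secreted antibodies, stood at -0.27 (adjusted p = 0.627). No red blood cell marker passed the filter, although 7 of 9 were on the array. No endothelial marker of 7 tested (3 at an unadjusted p under 0.05) and no adipocyte marker of 2 tested (1) was called. PECAM1 and CDH5, adhesion proteins of vessel walls, stood at -0.67 (adjusted p = 0.0566) and 0.01 (adjusted p = 0.948). Of 11 fibroblast and matrix genes 3 fell, COL3A1 (-1.58, adjusted p = 0.0258), COL1A2 (-1.26, adjusted p = 0.0227) and FN1 (-1.08, adjusted p = 0.0462), and 0 of these without the cow term. Another probe set of COL1A2 was not called (-0.84, adjusted p = 0.122). COL3A1 was highest in the CNT gland of cow8452, at 12.44 against 9.92 and 10.46 in the other CNT glands.

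**Figure D2:**
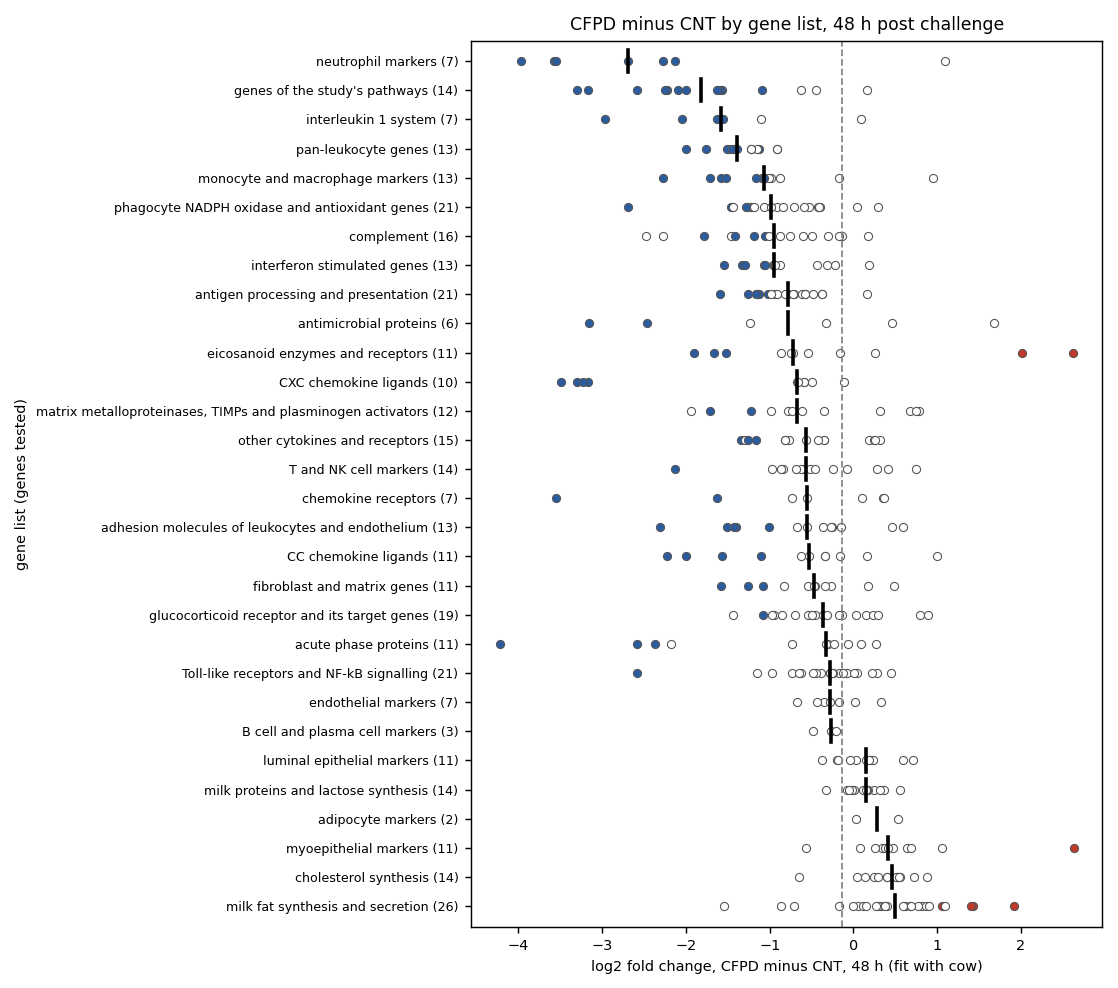
Log2 fold change of CFPD against CNT glands for each tested gene of 30 lists, 1 row per list with the number of tested genes in brackets. Filled points are called (blue lower, red higher), open points are not, black bars are medians of the tested genes and the dashed line is the median of all 13000 probe sets, -0.13. By the median of the tested genes, neutrophil markers (-2.69) lie farthest to the left and milk fat genes (0.50) farthest to the right, while single genes of other lists reach beyond both.

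In the interleukin 1 system 5 of 7 tested genes fell (11 on the array, median -1.56), and 4 of them without the cow term. IL1RN, the antagonist that blocks the interleukin 1 receptor, measured 10.32, 10.32 and 10.69 in CNT and 7.76, 7.87 and 6.80 in CFPD glands (log2 fold change -2.97, standard error 0.40, adjusted p = 0.00318, limma). The CNT glands of the 3 cows were close to each other, and every CFPD gland was far below them. IL1RAP, the accessory chain of the receptor, fell with -2.05 (adjusted p = 0.00334), IL18, a cytokine that drives interferon gamma, with -1.58 (adjusted p = 0.0143) and PYCARD, the inflammasome adaptor, with -1.63 (adjusted p = 0.00978). CASP1, the protease that matures interleukins 1 beta and 18, was chosen after its value was seen (-1.56, adjusted p = 0.00423). The receptor IL1R1 stood at 0.09 (adjusted p = 0.683). Of 15 other cytokine genes tested 3 fell: IL10RA (-1.34, adjusted p = 0.003), IL13RA1 (-1.25, adjusted p = 0.0456) and IL6R (-1.17, adjusted p = 0.0181), all receptor chains. IL13RA1 lost its call with the labels of cow8452 exchanged (-1.17, adjusted p = 0.0557). From the study's tables, IL18BP, which neutralises interleukin 18, fell with -1.98 (adjusted p = 0.027) and SOCS1, a feedback inhibitor of cytokine signalling, with -1.22 (adjusted p = 0.0066). TNFRSF1B, a receptor for tumour necrosis factor, fell with -1.15 (adjusted p = 0.0454) at a probe set named in this way, while the probe set that the annotation gives to it stood at 0.18 (adjusted p = 0.596).

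Among sensors and signalling genes of the Toll-like receptor pathway, LBP was the 1 called of 21 tested, where 3.07% of all probe sets were called, and 7 had an unadjusted p under 0.05 (24 on the array, median -0.28). TLR2, the receptor for bacterial lipoproteins, measured 10.96, 12.48 and 12.38 in CNT and 10.67, 10.57 and 11.11 in CFPD glands (log2 fold change -1.15, standard error 0.33, adjusted p = 0.0585, limma). The difference within cows was -0.29, -1.90 and -1.27, and the groups overlapped. With the labels of cow8452 exchanged it was called (-1.27, adjusted p = 0.0482). TLR4, the lipopolysaccharide receptor, stood at -0.62 (adjusted p = 0.079) with groups that did not overlap. The kinase MAP3K8, named from the study's tables, fell with -2.09 (adjusted p = 0.003).

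Of the antimicrobial proteins 20 were on the array and 6 passed the filter. The list went both ways: 4 of the 6 had a negative log2 fold change, and the highest stood at 1.68. Called were 2, both lower. Lingual antimicrobial peptide (LAP), a beta-defensin of epithelia, measured 10.84, 11.35 and 14.25 in CNT and 8.22, 8.69 and 10.06 in CFPD glands (log2 fold change -3.15, standard error 0.47, adjusted p = 0.00488, limma, and adjusted p = 0.214 without the cow term). Cow cow8605 was the highest in every group, with 10.38 in its NC gland. The differences within cows were -2.62, -2.66 and -4.18, and the groups did not overlap. DEFB4A, another beta-defensin, measured 10.97, 10.07 and 10.12 against 7.63, 9.72 and 6.40 (log2 fold change -2.47, standard error 0.64, adjusted p = 0.0445), and the difference within cow8507 was -0.35. Its call was lost with the labels of cow8452 exchanged (-2.84, adjusted p = 0.0557), and its other probe set was not called (-2.77, adjusted p = 0.0776). Over all 20 genes the median was 0.15, opposite in sign to that of the 6 tested (-0.78). The epithelial defensin EBD was not called (-1.23, adjusted p = 0.109).

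In the complement system 4 of 16 tested genes fell, with 19 on the array and a median of -1.01. The initiating proteases C1R and C1S fell with -1.79 (adjusted p = 0.00479) and -1.18 (adjusted p = 0.000961), the collagen-like subunit C1QA with -1.06 (adjusted p = 0.0463), and the pore component C7 with -1.41 (adjusted p = 0.0151). C1S measured 10.53, 9.91 and 10.24 in CNT and 9.21, 8.80 and 9.12 in CFPD glands. The difference within cows was -1.33, -1.11 and -1.12. CFB, the protease of the alternative pathway, had a larger but more variable difference (-2.47, adjusted p = 0.0563, chosen after its value was seen).

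Interferon stimulated genes, the antiviral programme, had 5 of 13 tested members lower (20 on the array, median -0.71). Of the 13, 2 passed the filter only through CNT arrays. ISG15, a ubiquitin-like modifier, measured 9.61, 9.13 and 9.46 in CNT and 8.22, 8.03 and 7.96 in CFPD glands (log2 fold change -1.33, standard error 0.13, adjusted p = 0.000782, limma). The groups did not overlap. XAF1, RSAD2 and MX1 fell with -1.54 (adjusted p = 0.0103), -1.30 (adjusted p = 0.003) and -1.07 (adjusted p = 0.0141), and ISG15 was the 1 of these that was called without the cow term. In antigen processing and presentation 6 of 21 tested genes fell (23 on the array, median -0.72). They included the immunoproteasome subunits PSMB9 (-1.59, adjusted p = 0.00296) and PSMB8 (-1.15, adjusted p = 0.00719), the peptide transporter TAP1 (-1.26, adjusted p = 0.0116) and CTSS, a protease of the class II route (-1.17, adjusted p = 0.00278), and BOLA-DMA, which loads peptide on class II molecules, fell with -1.02 (adjusted p = 0.0154). None of the 6 was called without the cow term. PSMB9 was highest in the CNT gland of cow8452 (11.23).

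Genes of effector functions and of cell adhesion were among the falls. CYBB, the catalytic core of the phagocyte NADPH oxidase, measured 10.77, 9.78 and 9.71 in CNT and 8.90, 8.79 and 8.22 in CFPD glands (log2 fold change -1.45, standard error 0.20, adjusted p = 0.00324, limma). The groups did not overlap. Its partner CYBA fell with -1.23 (adjusted p = 0.00318) and SRXN1, which repairs oxidised peroxiredoxins, with -1.29 (adjusted p = 0.0116). HMOX1, the haem-degrading enzyme, fell with -1.47 (adjusted p = 0.00991), and 5 of 21 tested genes of this list fell (25 on the array, median -0.84). Of 13 tested adhesion genes 5 fell, with 17 on the array: CD44, a hyaluronan receptor (-2.31, adjusted p = 0.0253), the integrin chain ITGB2 (-1.51, adjusted p = 0.00762), VCAM1 (-1.42, adjusted p = 0.00157) and ICAM1 (-1.40, adjusted p = 0.0227) of activated endothelium, and ICAM3 of resting leukocytes (-1.01, adjusted p = 0.0103, chosen after its value was seen). The plasminogen activator PLAU and its receptor PLAUR fell with -1.71 (adjusted p = 0.0141) and -1.23 (adjusted p = 0.00879), 2 of 12 tested on their list. The metalloproteinase MMP19 was not called (-1.94, adjusted p = 0.0634), with the CFPD gland of cow8507 at 8.66 and its CNT gland at 8.64.

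Eicosanoid genes moved in both directions, 3 lower and 2 higher of 11 tested (19 on the array). ALOX15, a lipoxygenase that acts on arachidonic and linoleic acid, measured 8.82, 8.98 and 8.23 in CNT and 11.14, 10.58 and 12.18 in CFPD glands (log2 fold change 2.62, standard error 0.48, adjusted p = 0.0129, limma). HPGD, which inactivates prostaglandins, measured 7.70, 10.24 and 7.40 against 9.90, 11.33 and 10.14 (log2 fold change 2.01, standard error 0.39, adjusted p = 0.0156). Cow cow8507 was high for HPGD in every gland, so the groups overlapped while each CFPD gland was above its own CNT gland. PTGDS, a prostaglandin D synthase, and PTAFR, the receptor for platelet activating factor, fell with -1.91 (adjusted p = 0.00587) and -1.67 (adjusted p = 0.00325). The prostaglandin synthases PTGS1 and PTGES stood at 0.26 (adjusted p = 0.303) and -0.16 (adjusted p = 0.634).

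Genes that glucocorticoids are known to act on were set beside the 3.07% called of all probe sets. Of all 13000, 3743 had an unadjusted p under 0.05 (limma). Of 30 listed, 23 were on the array and 19 were tested (5 at an unadjusted p under 0.05). CEBPB, a transcription factor of the acute phase response, was the 1 called and was lower (-1.08, adjusted p = 0.0143, limma). Its other probe set stayed below the fold threshold and was not called (-0.87, adjusted p = 0.0269). The median over the 23 was -0.32. Over the 19 tested it was -0.36, beside -0.57 for CF against CNT glands and 0.14 for CFPD against CF glands. The phosphatase DUSP1 measured 11.79, 11.65 and 11.75 in CNT and 11.63, 12.44 and 11.56 in CFPD glands (0.14, adjusted p = 0.625), and the receptor NR3C1 9.45, 9.78 and 9.59 against 9.26, 8.90 and 10.24 (-0.14, adjusted p = 0.73). The groups overlapped for both. ZBTB16 and CRISPLD2, targets chosen after their values were seen, had 0.79 (adjusted p = 0.389) and 0.89 (adjusted p = 0.0545).

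Genes of milk fat synthesis were among the rises. LPL, the lipase that takes up fat from lipoproteins of the blood, measured 11.47, 12.36 and 12.12 in CNT and 13.08, 13.06 and 14.07 in CFPD glands (log2 fold change 1.42, standard error 0.29, adjusted p = 0.0212, limma). FASN, the fatty acid synthase, measured 12.66, 13.57 and 13.11 against 13.90, 14.39 and 14.22 (log2 fold change 1.06, standard error 0.14, adjusted p = 0.00318), close to the 14.07, 14.41 and 14.25 of NC glands. GPAT4, an acyltransferase of triglyceride synthesis, rose at 2 probe sets, by 1.40 (adjusted p = 0.00722) and 1.41, and BDH1, which interconverts ketone bodies, by 1.92 (adjusted p = 0.0294). These were 4 called of 26 tested milk fat genes (30 on the array, median 0.35), against 0.7% of all probe sets tested that were higher. The log2 fold change was negative for 5 of the 26, down to -1.54, and 0 were called lower. None of the 4 was called without the cow term, and with the labels of cow8452 exchanged and its CNT array left out 1 was. The fatty acid transporter CD36 was not called (0.62, adjusted p = 0.0742). Of 14 tested genes for cholesterol synthesis and of 14 for milk proteins and lactose, 0 were called (7 and 4 at an unadjusted p under 0.05, limma), and the casein gene CSN1S1 stood at 0.37 (adjusted p = 0.0855). No luminal epithelial marker of 11 tested was called, with 1 at an unadjusted p under 0.05, and the keratins KRT18 and KRT19 stood at 0.15 (adjusted p = 0.724) and 0.21 (adjusted p = 0.52).

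**Figure D3:**
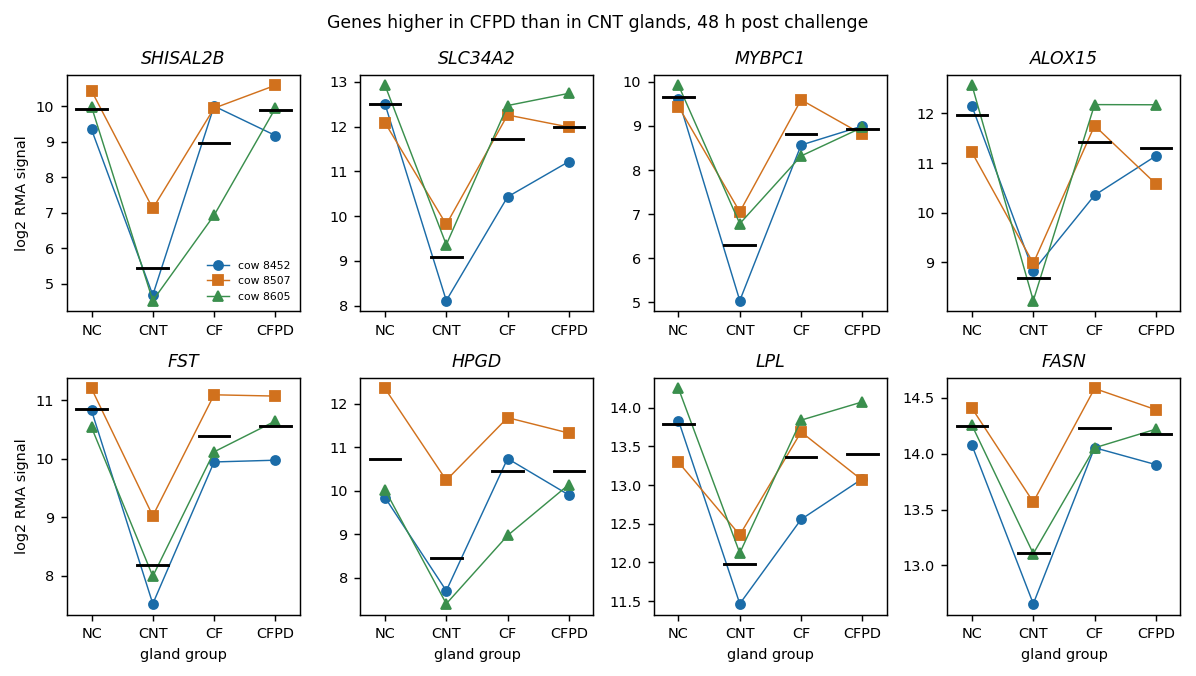
Log2 RMA signal of 8 genes in the 12 glands of 48 h, by group on the horizontal axis (NC, CNT, CF, CFPD). Lines join the glands of 1 cow and black bars are group means of 3 glands. Within each cow the CFPD gland lies above the CNT gland for each of the 8 genes, and the CNT glands of HPGD span 7.40 to 10.24.

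The largest rise was that of SHISAL2B, a small membrane protein, at 4.68, 7.12 and 4.52 in CNT and 9.18, 10.59 and 9.95 in CFPD glands (log2 fold change 4.46, standard error 0.64, adjusted p = 0.00459, limma). SLC34A2, the sodium phosphate cotransporter of the epithelial apical membrane, named from the study's tables, measured 8.11, 9.82 and 9.36 against 11.22, 11.99 and 12.74 (log2 fold change 2.89, standard error 0.37, adjusted p = 0.0029). The probe set that the annotation gives to SLC34A2 was not called (1.14, adjusted p = 0.122). FST (follistatin), which binds and neutralises activin, measured 7.52, 9.02 and 7.99 against 9.98, 11.07 and 10.65 (log2 fold change 2.39, standard error 0.21, adjusted p = 0.000604). In all 3 genes the CNT glands were the low group and no values overlapped. MYBPC1, a myosin-binding protein that was the 1 called of 11 tested myoepithelial genes, rose with 2.63 (adjusted p = 0.0074), while KRT5 and KRT14, keratins of that layer, stood at 0.47 (adjusted p = 0.356) and 0.34 (adjusted p = 0.76). The rest of the 10 largest rises were PHYHIPL (2.31), TMOD4, which caps actin filaments (2.28), SPADH1 (2.13), TECTB (2.10) and ASB11 (2.00). TECTB lost its call with the labels of cow8452 exchanged (1.82, adjusted p = 0.0689). The cation transporter ATP13A4, named from the study's tables, rose with 1.84 (adjusted p = 0.017).

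CFPD and CF glands differed in prednisolone and were opposite rear glands of each cow, and the 2 groups were compared directly. None of the 13000 probe sets was called (0%), with 114 at an unadjusted p under 0.05 by limma. The 95% interval of a difference had a median half-width of 0.38 on the log2 scale, with variable genes far above it. For S100A8 the difference was 0.02 (95% interval -0.62 to 0.66), for CXCL8 -0.15 (95% interval -1.59 to 1.28), for HP -0.24 (95% interval -2.34 to 1.85) and for FASN -0.06 (95% interval -0.38 to 0.26). These intervals are wide enough for HP and CXCL8 to hold a change of more than 1 in either direction. Among the genes named here, DEFB4A had the largest difference, 1.69 (95% interval 0.27 to 3.10), with CFPD glands at 7.63, 9.72 and 6.40 and CF glands at 6.52, 6.28 and 5.89. By size of the difference, S100A9 and KRT14 followed DEFB4A at 1.34 (95% interval -0.20 to 2.88) and 1.35 (95% interval -0.17 to 2.88). For DEFB4A, S100A9 and KRT14 the CFPD gland of cow8507 was the highest of the treated glands, and its part in the difference was not tested. Side by side with the fold changes of CFPD glands, those of CF against the same CNT glands were -3.99 for S100A8, -3.15 for CXCL8, -3.98 for HP, 1.38 for LPL and 2.21 for FST, and the 2 comparisons share their CNT arrays. No probe set was called with the labels of cow8452 exchanged either.

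**Figure D4:**
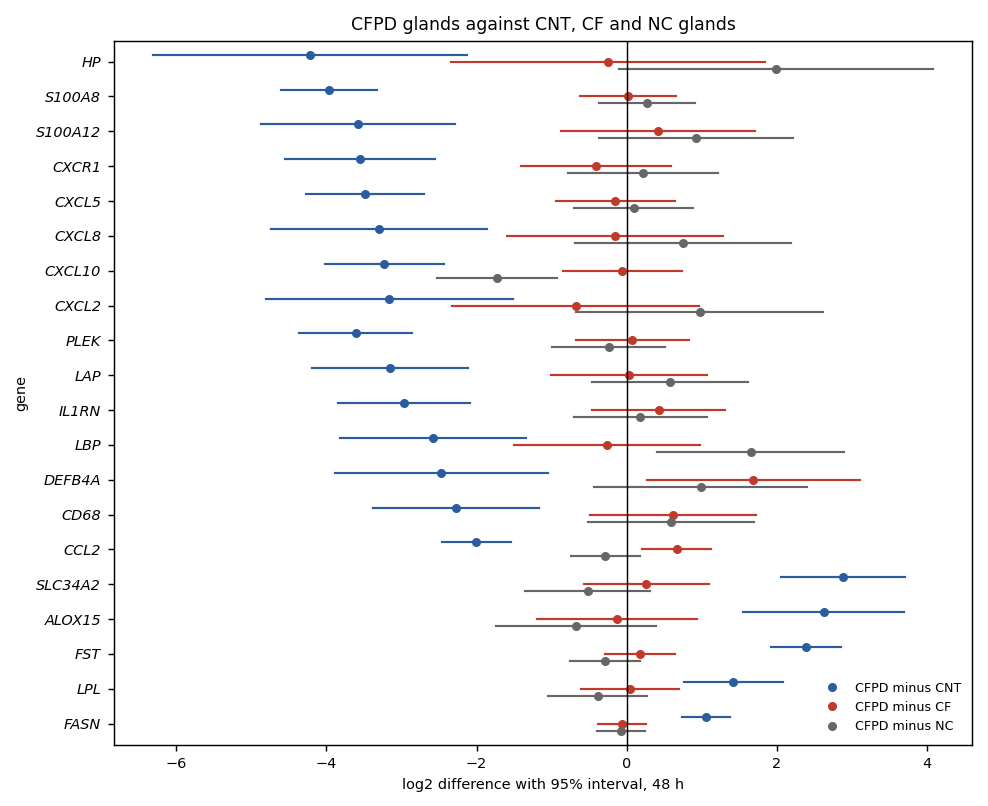
Log2 difference of CFPD glands from CNT (blue), CF (red) and NC (grey) glands for 20 genes 48 h post challenge, as points with 95% intervals from 1 fit of 12 arrays. Intervals are not adjusted for the number of genes. The 20 genes were picked among those called against CNT glands, so all blue intervals leave out 0 by selection. Of the red intervals, those of DEFB4A and CCL2 leave out 0.

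CFPD glands were also compared with NC glands, which asks what remained of the response to challenge. Again none of the 13000 probe sets was called (0%), with 159 at an unadjusted p under 0.05 (limma). HP was higher in CFPD glands by 2.00 (95% interval -0.10 to 4.09) and LBP by 1.65 (95% interval 0.41 to 2.89), neither called. HP in NC glands measured 9.64, 6.18 and 7.50, so the CFPD gland was above the NC gland in cow8452 and cow8507 and below it in cow8605. CXCL10 was lower than in NC glands, at -1.73 (95% interval -2.52 to -0.93), and SLC34A2 stood at -0.52 (95% interval -1.35 to 0.31). Challenge alone had moved the same genes by 6.22 for HP, 1.501 for CXCL10 and -3.41 for SLC34A2 in CNT against NC glands, which share arrays with the comparisons above.

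CFPD and CNT glands were also measured at 24 h in 2 other cows, after infusions at 4 and 12 h only, and the difference between the time points was tested in 1 fit of all 20 arrays. Of 13501 probe sets 8 were called (0.0593%), 6 with the log2 fold change lower (0.0444%) and 2 with it higher (0.0148%) at 48 h, and 1392 had an unadjusted p under 0.05 (limma). C1S, described above, was among the called: its fold change was -1.18 at 48 h and 0.10 at 24 h. CD40 was called at the probe set that failed the filter of 48 h, with -1.18 at 48 h and -2.76 at 24 h. CCL8 (-2.23 and 0.28), C7 (-1.41 and 0.83) and CCL5 (-0.63 and -2.15) were not called, with adjusted p of 0.0757, 0.0805 and 0.0916. The time points hold different cows and different numbers of infusions, so time, animal and number of doses cannot be told apart, and without the cow term 0 were called (638 at an unadjusted p under 0.05).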

How the data were processed

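Tissue RNA of single glands had been hybridised to Affymetrix GeneChip Bovine Genome Arrays, 1 array per gland. The authors had deposited a log2 signal per probe set, made by robust multi-array average (RMA) in the affy package (version not given in the sources used here). Tables of the authors' own fold changes were not used for any value. Arrays carry no read depth, so their number limits the precision. Control probe sets (112 of 24128) were left out. Of the others, 13000 whose signal exceeded the array's median on at least 3 of the 12 arrays of 48 h were tested. GEO's platform annotation gave 1 gene symbol for 13318 probe sets, several for 86 and none for 10724, and 19 probe sets were named from the study's tables. Where a gene had several probe sets, that with the highest mean stood for it in lists.

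The model in limma 3.58.1 (R 4.3.3) had group (NC, CNT, CF, CFPD) and cow as fixed terms over the 12 arrays, with 6 residual degrees of freedom. Replicates are glands of separate cows, and the glands of a cow share an animal, which is the source of the pairing. The deviations of CFPD and CNT glands of the same cow from their group means correlated at 0.22, 0.06 and 0.21. Called means a Benjamini-Hochberg adjusted p under 0.05 over all 13000 probe sets with a difference of 1 or more on the log2 scale in either direction. The time difference was fitted over all 20 arrays. Genes are named if they were among the 10 largest falls or rises with 1 symbol and 1 direction in 3 cows, among the 4 largest calls or the first 2 members of a list, or in the study's pathways. The members and lists were chosen with earlier results of these data known. On simulated data of 13000 probe sets for CFPD against CNT glands, 92.5% of probe sets lowered by 2 and 40% of those lowered by 1 on the log2 scale were called, with 0.0312% of unchanged ones. There 12800 probe sets were unchanged, and errors were normal with the same spread in every group. The data differ in both respects, so these shares need not hold for them. Alternatives covered the cow term, the arrays in the fit, the filter, the normalization, the variance prior, the fold threshold, the exchange of labels and each cow or array left out.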

Additional observations from a re-analysis of the deposited data

Results flagged for a closer look

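At 8 probe sets the log2 fold change of CFPD against CNT glands differed between 48 h (3 cows) and 24 h (2 other cows) in a test of that difference (limma, 13501 probe sets, adjusted p = 0.0257 for each except DZIP3). The difference is given as 48 h minus 24 h. For CD40, the receptor through which T cells activate antigen presenting cells, it was 1.58, from -2.76 at 24 h to -1.18 at 48 h. CNT glands measured 8.67 and 8.83 at 24 h against 7.66, 7.04 and 7.49 at 48 h, and CFPD glands 5.97 to 6.29 at both times. IL1R2, the decoy receptor for interleukin 1, had 2.27, from -4.00 to -1.73, again with CFPD glands alike at both times (4.99 to 5.57) and CNT glands higher at 24 h (8.61 and 9.84) than at 48 h (6.84 to 7.67). For C1S, a protease that starts the complement cascade, it was -1.28, from 0.10 to -1.18. RGS5, a regulator of G protein signalling in pericytes, had -1.62 (0.88 and -0.73), SIRT3, a mitochondrial deacetylase, -1.37 (1.06 and -0.30) and DZIP3, a ubiquitin ligase, -2.55 (1.72 and -0.83, adjusted p = 0.0331). A pair of probe sets without a gene symbol had -2.39 and -1.23. With the labels of cow8452 exchanged the call of SIRT3 was kept (adjusted p = 0.0264). The other 7 then had an adjusted p of 0.0587 to 0.0604, and without the cow as a block all 8 had 0.153 to 0.45. CFPD glands had infusions at 4 and 12 h before 24 h and at 4, 12, 24 and 36 h before 48 h, so time, animal and number of doses cannot be told apart, and leaving out any cow but cow8609 or cow8452 left 0 of the 8 called.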

How the results depend on the processing

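The count of 399 called probe sets between CFPD and CNT glands was 157 without the cow as a block, 26 with only the 6 arrays of these groups and 159 with the labels of cow8452 exchanged and no block. It was 245 without the CF and CFPD arrays of cow8452 and 1032 without the fold threshold. Leaving out 1 cow or 1 array gave 37 to 522: 37 without cow8605, 189 and 196 without the CFPD array of cow8605 or of cow8452. With the labels exchanged and the CNT array of cow8452 left out, a combination chosen after seeing the data, it was 405. The other settings stayed within 1.5 times of 399. Of 100 called probe sets named by the rule or from the study's tables, 50 kept the call without the block, 97 with the labels exchanged and 11 without cow8605, and none changed direction in any setting. Without cow8452 or cow8507, 68 and 83 of the 100 kept it.

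The count of 8 for the difference between 48 h and 24 h was 0 without the block of cow, 1 with the labels of cow8452 exchanged, 0 with that exchange and no block, and 4 each with a trended and robust prior and with a filter on mean signal. Leaving out 1 cow gave 0 to 26, with 0 without cow8605, 1 without cow8507, 3 without cow8620 and 26 (3 lower, 23 higher) without cow8609. Of the 8, 2 were among the 26 without cow8609, 1 among the 6 without cow8452 and 0 among those without cow8507, cow8605 or cow8620. Exchanging the CF and CFPD labels of cow8609 at 24 h, which are in doubt too, gave 8, and exchanging those of both cows 9 (chosen after seeing the data). For CFPD against CF and against NC glands, 0 were called in every setting run, with 15 to 290 and 43 to 465 at an unadjusted p under 0.05. The median of the luminal epithelial markers turned from 0.15 to -0.11 without cow8507. The cause of these changes was not tested.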
